A study of Homo sapiens with 16 samples.

Results

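ATF4 and the genes of the amino acid stress response were read in spheroids of prostate cancer cells after knockdown of MED12. The genes were chosen as a list of 31 names: ATF4 and stress factors, enzymes of serine and one-carbon metabolism, other enzymes of amino acid metabolism with a tRNA exporter, and amino acid transporters. The choice was made with earlier results of these data known, so shares of the list are not independent of the data. Of the 31 genes, 26 passed the expression filter and stand in the deposited log2 CPM table, which holds 10566 of the 62703 counted genes. Levels are given in CPM, a count scaled to a common library total, with totals adjusted here by trimmed means of M values (TMM). The other 5 genes, NUPR1, CHAC1, VLDLR, ALDH1L2 and ASNS, were counted too rarely to be tested.

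Messenger RNA was counted by BRB-seq, a pooled method in which samples receive their barcodes during reverse transcription and only the 3′ ends of polyadenylated transcripts are read, so a level is set by tags and not by transcript length. LNCaP cells carry the androgen receptor and are held back by the antiandrogen enzalutamide, 22Rv1 cells also carry the receptor but resist the drug, and PC3 cells lack the receptor. Every library came from cells transfected with 25 pmol of siRNA, either a non-targeting pool (siCtrl) or a pool against MED12 (siMED12), grown flat for 3 days and then as spheroids for 4 days. There were 3 siCtrl libraries of each line, 3 siMED12 libraries of LNCaP, and 2 siMED12 libraries each of 22Rv1 and PC3, 16 in all. Each line is a single established tumor line, so differences between lines compare these lines only. The study's methods call its replicates biological in general, and the labels do not say whether these libraries came from separate cultures.

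ATF4 is the transcription factor at the center of the integrated stress response. Kinases that sense amino acid shortage, misfolded protein, viral RNA or lack of heme phosphorylate the initiation factor eIF2, which slows most translation while the ATF4 message is translated more. ATF4 protein, often with a C/EBP partner, then turns on genes that make, import or spare amino acids, and with prolonged stress it induces DDIT3 (also called CHOP), a factor linked to cell death. Much of the control of ATF4 is therefore at translation, which messenger RNA counts do not measure.

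ATF4 and C/EBP factors bind together at composite DNA elements, and the letters TGATGNAA were searched on both strands (TTNCATCA on the other) in windows from 250 bases before to 50 bases after RefSeq starts (GRCh38.p14). Of the 31 genes, 24 had a window, and 7 of those 24 (29.2%) held the letters, against 4.46% of all 27305 genes with a window and 3.62% of all 35116 windows. In SLC3A2 and SLC7A1 the letters lay only after the start. The other 5 genes held them before the start or reaching it, and their stretches are shown to let the shared letters, in capitals, be compared with their flanks.
SLC1A4: gcggctcccgtTTGCATCA
MTHFD1L: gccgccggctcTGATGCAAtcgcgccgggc
CEBPG: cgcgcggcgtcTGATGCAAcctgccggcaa
CHAC1: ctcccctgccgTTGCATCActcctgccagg
ASNS: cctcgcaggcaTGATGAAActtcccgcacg
The stretches are those of SLC1A4 (chr2:64989381-64989399, plus strand), MTHFD1L (chr6:150866346-150866375, plus strand), CEBPG (chr19:33374060-33374089, plus strand), CHAC1 (chr15:40953251-40953280, plus strand) and ASNS (chr7:97872458-97872487, minus strand). In CEBPG the letters began 42 bases before the start, in ASNS 68 and in CHAC1 209, and in SLC1A4 they ran from 7 bases before the start onto its first base. The windows of the remaining genes, DDIT3 and TRIB3 among them, did not hold these letters. Sequence further than 250 bases before a start was not searched. A match describes letters in a window and is not a measured binding site. GPT2, SHMT2, SLC7A11, PYCR1, ALDH1L2, PSPH and NUPR1 had no window in the table.

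Library totals ran from 479118 to 993807 counts, and the 31 genes together took 0.206% to 0.368% of them. A count of 0 leaves room for up to 3 counts, which was 3.15 to 6.22 CPM depending on the library and covers counting error only. MED12 itself had 5 to 22 counts per library. Its level was 9.94, 12.9 and 11.7 CPM in the LNCaP siCtrl libraries and 6.99, 6.67 and 10.3 CPM in siMED12 (log2 fold change -0.50, SE 0.464). In 22Rv1 it was 23.4, 16.7 and 19.2 CPM against 7.42 and 8.98 CPM (-1.28, SE 0.455), and in PC3 28.4, 8.41 and 18.8 CPM against 15.8 and 14.5 CPM (-0.22, SE 0.433). None of these passed adjustment (edgeR adjusted p 0.878, 0.175 and 0.987), so a lower level of the targeted transcript did not pass the test in any line at this depth. The study describes its MED12 knockdown in spheroids as highly efficient, and counts this low do not show that it failed. Line markers followed the labels: KLK3, the prostate-specific antigen, was at 2473 ± 82.2 CPM in LNCaP siCtrl, while VIM and CAV1 were at 620 ± 40.9 and 533 ± 45.0 CPM in PC3 siCtrl (SD, n = 3), and PTPRC and DCN, of leukocytes and fibroblasts, had 0 counts. PECAM1, of endothelium, had 0 to 7 counts per library, and the collagen gene COL1A1 reached 98.0 CPM in PC3. Genes restricted to a line had a siCtrl mean of at least 50 CPM there and at most 2 CPM in the other lines. Low siCtrl shares in the other lines follow from this choice. Genes restricted to another line marked 2 siMED12 libraries. The 62 genes restricted to PC3 stood at 5.50% of their PC3 level in replicate 3 of 22Rv1 siMED12, against at most 0.938% in 22Rv1 siCtrl. The 5 genes restricted to LNCaP stood at 4.00% in replicate 3 of PC3 siMED12, against at most 1.39% in PC3 siCtrl. Subtracting this excess left the number of listed genes called the same in every comparison except 22Rv1 against LNCaP in siCtrl, where it was 15 in place of 14. The siCtrl libraries were not corrected, so comparisons between them could move only through the shared scaling and spread estimate. For siMED12 in 22Rv1 and PC3 the number was already 0. An unchanged number therefore does not show that single values were unaffected.

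The 1st comparison asked how the genes differed between the lines without knockdown. The threshold of 0.05 for the edgeR adjusted p was passed in at least 1 pair of lines by 23 of the 26 tested genes, where 76.4% of all tested genes passed in at least 1 pair. The counts were 14 of 26 for 22Rv1 against LNCaP (8 higher, 6 lower), 19 of 26 for PC3 against LNCaP (7 higher, 12 lower) and 16 of 26 for PC3 against 22Rv1 (5 higher, 11 lower). Over all tested genes the shares were 43.2% (22% higher, 21.2% lower), 54.7% (29.2% higher, 25.5% lower) and 54.9% (28.7% higher, 26.1% lower). The 3 pairs share their siCtrl libraries. The median log2 difference of the 26 genes was -0.05, -0.11 and -0.40 in that order, against 0, 0.05 and 0.01 over all genes. No line led throughout: LNCaP had the highest mean for 9 genes, 22Rv1 for 9 and PC3 for 8, while PC3 had the lowest for 11. In bulk RNA, a smaller share of cells carrying a transcript and less of it per cell cannot be told apart.

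**Figure D1:**
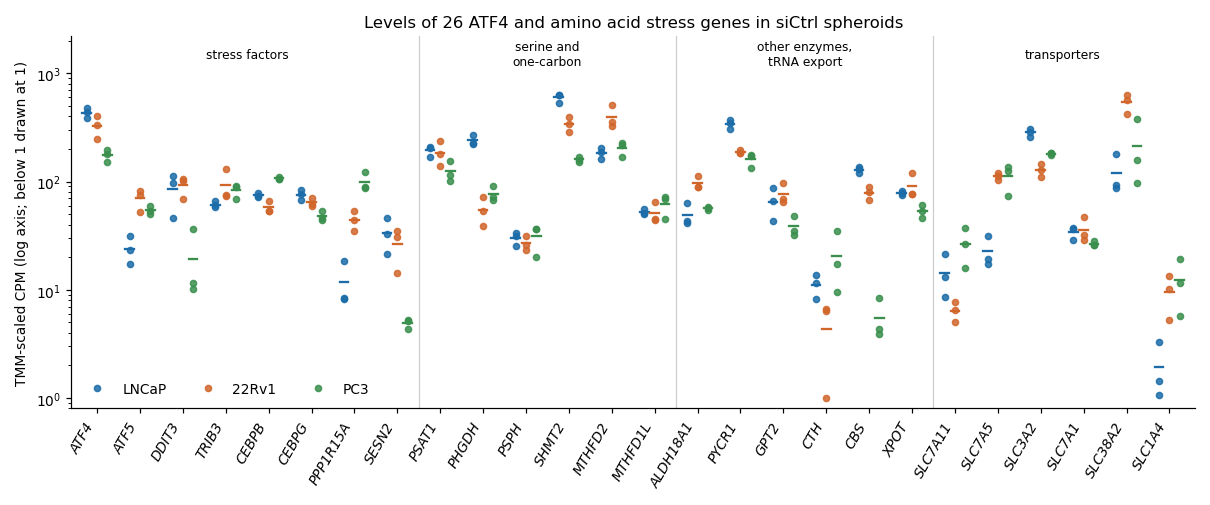
Level of each of the 26 tested genes in the siCtrl libraries, as TMM-scaled CPM on a log axis, by role and line; each point is 1 library, each bar the mean of 3, and a value below 1 is drawn at 1. CBS and SESN2 stand lowest in PC3, PPP1R15A and SLC7A5 lowest in LNCaP, and SLC38A2 highest in 22Rv1.

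ATF4 (GRCh38 chromosome 22, 39519695 to 39522683) was counted at 383, 441 and 478 CPM in LNCaP siCtrl, at 247, 331 and 407 CPM in 22Rv1 and at 196, 152 and 181 CPM in PC3. All PC3 libraries lay below all libraries of the other lines, while LNCaP and 22Rv1 overlapped. PC3 was lower by a log2 difference of -1.31 (SE 0.155, adjusted p 1.41e-08) against LNCaP and -0.90 (SE 0.158, adjusted p 1.32e-05) against 22Rv1. The difference of 22Rv1 from LNCaP was -0.41 (SE 0.147, adjusted p 0.0249), and without replicate 1 of 22Rv1 it was -0.23 with an adjusted p of 0.223. It also lost its call without 3 other siCtrl libraries, replicates 2 and 3 of LNCaP and replicate 2 of 22Rv1, and in DESeq2.

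Of the factors that ATF4 induces, DDIT3 and SESN2 were low in PC3 like ATF4, and PPP1R15A was not. DDIT3 (chromosome 12, 57516588 to 57521737) was at 46.4, 96.0 and 113 CPM in LNCaP, 69.0, 100.3 and 106 CPM in 22Rv1 and 36.1, 11.6 and 10.1 CPM in PC3. LNCaP and 22Rv1 overlapped and PC3 lay below both, by -2.20 (SE 0.330, adjusted p 1.16e-06) from LNCaP and -2.25 (SE 0.330, adjusted p 7.89e-07) from 22Rv1. Replicate 1 of PC3 stood above the other PC3 libraries, and without it the differences were -2.99 and -3.04. SESN2, a sestrin that restrains mTORC1 when leucine is scarce, was at 21.5, 45.8 and 32.9 CPM in LNCaP, 14.3, 35.1 and 30.8 CPM in 22Rv1 and 5.16, 5.26 and 4.33 CPM in PC3, where it rested on 3 to 5 counts per library. The log2 difference of PC3 was -2.73 (SE 0.408) from LNCaP and -2.36 (SE 0.434) from 22Rv1, with adjusted p of 1.12e-06 and 2.76e-05. PPP1R15A, or GADD34, which directs the phosphatase that restores eIF2 and so ends the response, ran the other way, with 8.28, 18.6 and 8.48 CPM in LNCaP, 44.2, 53.5 and 34.6 CPM in 22Rv1 and 123, 87.3 and 89.6 CPM in PC3. The 3 lines did not overlap, the PC3 mean was 8.46 times the LNCaP mean, and each step passed (1.89, SE 0.324, for 22Rv1 against LNCaP and 1.19, SE 0.213, for PC3 against 22Rv1, adjusted p 1.71e-05 and 1.87e-05).

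The other factors differed less. ATF5, a relative of ATF4 under the same translational control, was at 24.0 ± 7.17 CPM in LNCaP, 69.8 ± 15.9 in 22Rv1 and 54.5 ± 4.87 in PC3 (SD, n = 3), and LNCaP was below both (log2 1.58 and 1.21 higher in 22Rv1 and PC3, adjusted p 2.40e-06 and 0.000101). The C/EBP partner CEBPB was highest in PC3, at 107 ± 3.73 CPM against 74.4 ± 3.91 in LNCaP and 57.9 ± 7.68 in 22Rv1, with PC3 differences of 0.52 and 0.88 (adjusted p 0.00964 and 9.57e-05). Its family member CEBPG was lower in PC3 than in LNCaP (47.8 ± 4.56 against 75.4 ± 7.72 CPM, log2 -0.67, adjusted p 0.00319). TRIB3, a pseudokinase that feeds back on ATF4, was at 61.3 ± 3.99 CPM in LNCaP and 93.4 ± 32.4 CPM in 22Rv1. That difference of 0.61 (adjusted p 0.0209) rested on replicate 3 of 22Rv1, at 131 CPM, and was 0.29 without it (adjusted p 0.317) and did not pass in DESeq2 (0.0532).

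Among the enzymes that make serine and pass its carbon to folate, PHGDH and SHMT2 were highest in LNCaP and MTHFD2 in 22Rv1. PHGDH, the first enzyme of serine synthesis, was at 229, 223 and 271 CPM in LNCaP, 53.4, 38.4 and 71.9 CPM in 22Rv1 and 67.1, 72.5 and 91.0 CPM in PC3. Every LNCaP library lay above every other library, with log2 differences of -2.12 (SE 0.181, adjusted p 3.16e-11) in 22Rv1 and -1.66 (SE 0.169, adjusted p 6.41e-10) in PC3. SHMT2, which moves a carbon from serine to folate in mitochondria, was at 537, 626 and 635 CPM in LNCaP, 338, 287 and 394 CPM in 22Rv1 and 152, 168 and 159 CPM in PC3. The 3 lines did not overlap, and 22Rv1 was -0.81 (SE 0.151) and PC3 -1.91 (SE 0.161) from LNCaP, with adjusted p of 5.08e-05 and 1.07e-11. MTHFD2, the next mitochondrial folate enzyme, was at 398 ± 99.4 CPM in 22Rv1 against 184 ± 21.9 in LNCaP and 204 ± 31.6 in PC3 (SD, n = 3). It was 1.11 higher in 22Rv1 than in LNCaP and 0.97 higher than in PC3 on the log2 scale, with adjusted p of 1.06e-06 and 3.85e-06. PSAT1, the aminotransferase after PHGDH, was lower in PC3 (124 ± 28.4 CPM) than in LNCaP (194 ± 23.3, adjusted p 0.00266) and 22Rv1 (184 ± 49.0, adjusted p 0.00670, and 0.106 without replicate 3 of 22Rv1). PSPH, the phosphatase that ends serine synthesis, and MTHFD1L, the mitochondrial formate enzyme, passed in no pair. PSPH is uncertain, since its near copy PSPHP1 had 183 counts beside its own 388.

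CBS had the largest ratio between line means of the 26 genes, with PC3 lowest, and CTH, the next enzyme on the route from homocysteine to cysteine, had its highest mean in PC3. CBS was at 121, 136 and 129 CPM in LNCaP, 80.7, 66.9 and 88.5 CPM in 22Rv1 and 3.87, 8.41 and 4.33 CPM in PC3, which is 3 to 8 counts per PC3 library. The LNCaP mean was 23.3 times the PC3 mean, and PC3 was -4.44 (SE 0.274, adjusted p 5.68e-15) from LNCaP and -3.74 (SE 0.299, adjusted p 3.32e-12) from 22Rv1. CTH was at 8.28, 11.5 and 13.8 CPM in LNCaP, 0, 6.69 and 6.42 CPM in 22Rv1 and 34.8, 9.46 and 17.3 CPM in PC3. Only the difference of PC3 from 22Rv1 passed (2.21, SE 0.557, adjusted p 0.00119), and the 22Rv1 libraries held 0 to 5 counts. It was 1.57 (adjusted p 0.0274) without replicate 1 of PC3 and 1.59 (adjusted p 0.0161) without replicate 1 of 22Rv1. PYCR1, which makes proline, was highest in LNCaP (342 ± 31.6 CPM, against 187 ± 7.07 in 22Rv1 and 160.3 ± 22.8 in PC3, adjusted p 2.62e-06 and 2.48e-08). ALDH18A1, the enzyme before it, was highest in 22Rv1 (96.8 ± 13.2 CPM, against 49.1 ± 12.0 in LNCaP and 56.5 ± 1.48 in PC3, adjusted p 0.000111 and 0.000790). GPT2, a mitochondrial alanine aminotransferase, and XPOT, which exports tRNA from the nucleus, were lowest in PC3. GPT2 was at 38.4 ± 8.69 CPM there against 76.8 ± 16.9 in 22Rv1 (adjusted p 0.000782) and 65.3 ± 21.9 in LNCaP (adjusted p 0.00677, and 0.142 without replicate 3 of LNCaP). XPOT was at 53.4 ± 7.38 CPM in PC3 against 91.4 ± 25.3 in 22Rv1 (adjusted p 0.00113) and 78.0 ± 3.57 in LNCaP (adjusted p 0.0226). The XPOT difference from LNCaP held in 16 of 21 alternatives and was lost in DESeq2 (adjusted p 0.0912), without the filter on low counts, and without replicate 3 of LNCaP or replicate 1 or 3 of PC3.

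The transporters differed gene by gene. SLC7A5 (LAT1), which imports large neutral amino acids, was at 31.5, 17.2 and 19.1 CPM in LNCaP, 103, 119 and 113 CPM in 22Rv1 and 137, 73.6 and 126 CPM in PC3. LNCaP lay below both other lines, by 2.33 (SE 0.293, adjusted p 9.19e-08) from 22Rv1 and 2.32 (SE 0.290, adjusted p 4.15e-08) from PC3. Its heavy chain SLC3A2, which also serves SLC7A11, was instead highest in LNCaP, at 284 ± 26.3 CPM against 128 ± 17.4 in 22Rv1 and 181 ± 4.24 in PC3 (SD, n = 3), and differed in all 3 pairs (adjusted p 3.49e-08, 8.73e-05 and 0.00320). SLC38A2 (SNAT2), which takes up small neutral amino acids, was at 422, 567 and 636 CPM in 22Rv1, 181, 87.4 and 93.3 CPM in LNCaP and 379, 97.8 and 159 CPM in PC3. All 22Rv1 libraries were the highest, with a log2 difference of 2.20 (SE 0.312, adjusted p 8.05e-07) from LNCaP. PC3 was -1.37 (SE 0.288, adjusted p 0.000165) from 22Rv1, and -2.10 without replicate 1 of PC3. PC3 exceeded LNCaP by 0.84 (adjusted p 0.0315), and without replicate 1 of PC3 by 0.10 (adjusted p 0.794), and the call was also lost without replicate 2 or 3 of LNCaP, in DESeq2 (0.172) and in limma (0.108). SLC7A11, the cystine importer, was lowest in 22Rv1 (6.41 ± 1.35 CPM) and higher in PC3 (26.5 ± 10.8 CPM, log2 2.01, adjusted p 0.000191). Its difference between PC3 and LNCaP (14.3 ± 6.37 CPM) had an adjusted p of 0.0463 that passed in 11 of 21 alternatives and was 0.265 without replicate 1 of PC3 and 0.199 without replicate 2 of LNCaP. SLC1A4 (ASCT1), another neutral amino acid carrier, had only 1 or 2 counts in each LNCaP siCtrl library, under the 3 counts that a count of 0 allows, and was at 9.61 ± 4.12 CPM in 22Rv1 and 12.2 ± 6.81 CPM in PC3 (adjusted p 0.0114 and 0.00103 against LNCaP). The first of these was 0.0687 without replicate 3 of LNCaP and 0.0508 without replicate 2 of 22Rv1. SLC7A1 (CAT1), the carrier of arginine and lysine, passed in no pair.

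The 5 untested genes were near or under the counting floor. ASNS, the asparagine synthetase that is a standard ATF4 target and whose promoter stretch is printed above, had 6 counts in the 16 libraries together. In the annotation 49.3% of its exon bases also belong to a long noncoding RNA, ENSG00000284707, which had 0 counts, and the part of this overlap in the low count was not tested. ALDH1L2, a mitochondrial folate enzyme, had 3 to 7 counts in each 22Rv1 library and 0 counts in every LNCaP and PC3 library. NUPR1, a stress-induced nuclear protein, had 52 counts in all and 0 or 1 in each PC3 library. CHAC1, which degrades glutathione, had 0 to 9 counts per library and VLDLR, a lipoprotein receptor, 2 to 12.

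The 2nd comparison asked what siMED12 did to these genes in LNCaP. DDIT3 fell, and it was the only one of the 26 genes to pass, 3.85% of them against 0.416% of all tested genes. DDIT3 was at 46.4, 96.0 and 113 CPM in siCtrl and 44.8, 33.4 and 28.7 CPM in siMED12. The groups did not overlap, but the lowest siCtrl library lay just above the highest siMED12 library. The log2 fold change was -1.32 (SE 0.294, edgeR adjusted p 0.0259). The call was lost without siCtrl replicate 2 (-1.24, adjusted p 0.176), without siCtrl replicate 3 (-1.02, 0.455), without siMED12 replicate 2 (-1.28, 0.178) and without siMED12 replicate 3 (-1.15, 0.163), as well as in DESeq2 (0.0711) and limma (0.292).

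An unadjusted p below 0.05 was reached by 8 of the 26 genes, all lower in siMED12, where 7.34% of all tested genes reached it in either direction and 4.11% in the lower one. In 9 genes, these 8 and ATF4, all siMED12 libraries lay below all siCtrl libraries, which is 34.6% of the list, against 12.6% of all genes without overlap in either direction. The median log2 fold change of the 26 was -0.20, against -0.00385 over all genes, and 20 of the 26 were negative. Besides DDIT3, none of the 8 passed adjustment.

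**Figure D2:**
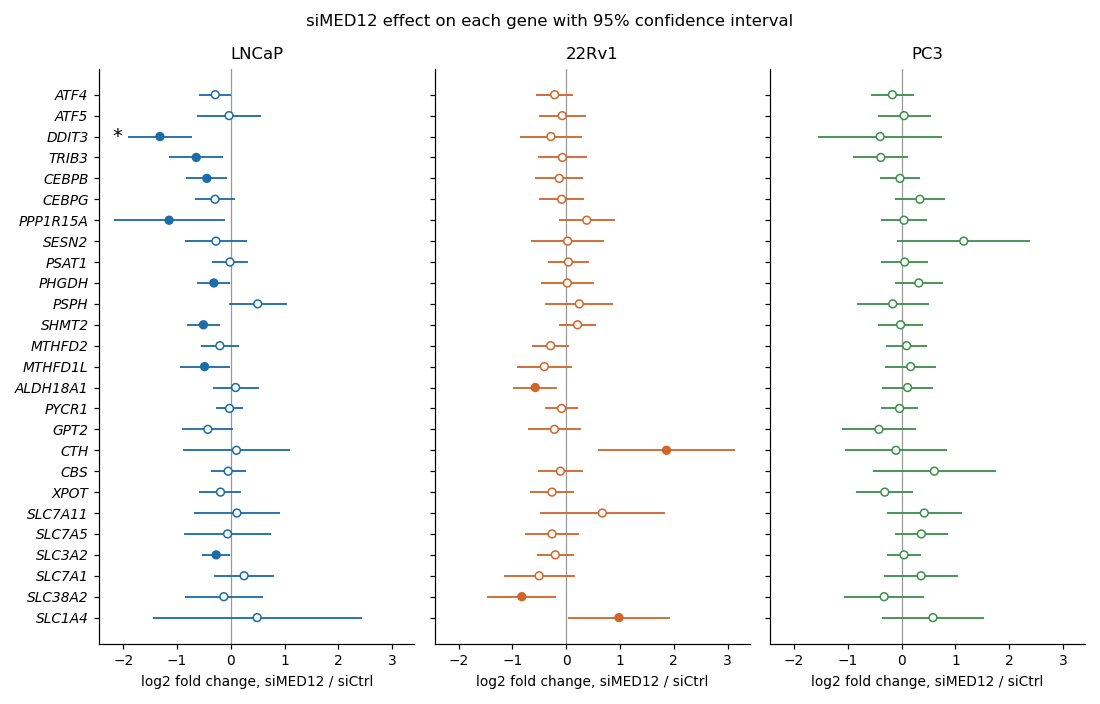
Log2 fold change of siMED12 against siCtrl for the 26 tested genes in each line, with 95% confidence intervals from the edgeR fit; filled symbols have an unadjusted p below 0.05 and the asterisk marks an adjusted p below 0.05. DDIT3 in LNCaP carries the asterisk, filled symbols are all on the lower side in LNCaP and on both sides in 22Rv1, and PC3 has none.

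ATF4 itself was at 383, 441 and 478 CPM in LNCaP siCtrl and 382, 329.6 and 358 CPM in siMED12. The groups nearly touched, and the log2 fold change was -0.29 (SE 0.145, p 0.0546, adjusted p 0.685). TRIB3 was at 58.0, 60.2 and 65.7 CPM in siCtrl and 49.0, 29.4 and 40.2 CPM in siMED12, and its log2 fold change of -0.64 did not pass (SE 0.246, adjusted p 0.479). PPP1R15A had 5 to 13 counts per siCtrl library and 4 in each siMED12 library, for -1.15 (SE 0.506, adjusted p 0.625). CEBPB was at 74.4 ± 3.91 CPM in siCtrl and 54.8 ± 5.67 CPM in siMED12 (SD, n = 3), for -0.45 (SE 0.188, adjusted p 0.590). All 8 tested stress factors had negative estimates, and for 5 of them (62.5%, against 12.6% of all genes) the libraries did not overlap.

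Of the serine and one-carbon enzymes, SHMT2 came nearest to the threshold. It was at 537, 626 and 635 CPM in LNCaP siCtrl and 448, 286 and 528 CPM in siMED12, where replicate 2 was far below the others. The log2 fold change was -0.51 (SE 0.148, adjusted p 0.180), and over the alternatives it ran from -0.69 to -0.30 and passed in 3 of 22. PHGDH was at 229, 223 and 271 CPM against 169, 191 and 222 CPM, which nearly touch, for -0.32 (SE 0.151, adjusted p 0.660). MTHFD1L was at 52.6 ± 3.20 CPM in siCtrl and 37.4 ± 5.89 CPM in siMED12 (SD, n = 3), for -0.49 (SE 0.228, adjusted p 0.650). PSAT1, PSPH and MTHFD2 did not reach an unadjusted p of 0.05, and the same held for all 6 enzymes of proline, alanine and cysteine metabolism and tRNA export.

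Among the transporters in LNCaP, SLC3A2 was at 288, 256 and 308 CPM in siCtrl and 239, 226 and 243 CPM in siMED12. The libraries did not overlap, and the log2 fold change was -0.27 (SE 0.128, adjusted p 0.650). Both SLC3A2 partners were within their spread: SLC7A5 was at 22.6 ± 7.76 CPM in siCtrl and 21.0 ± 3.81 CPM in siMED12, and SLC7A11 at 14.3 ± 6.37 and 16.3 ± 0.424 CPM. The 18 genes with an unadjusted p above 0.05 had log2 fold changes of -0.43 to 0.50.

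**Figure D3:**
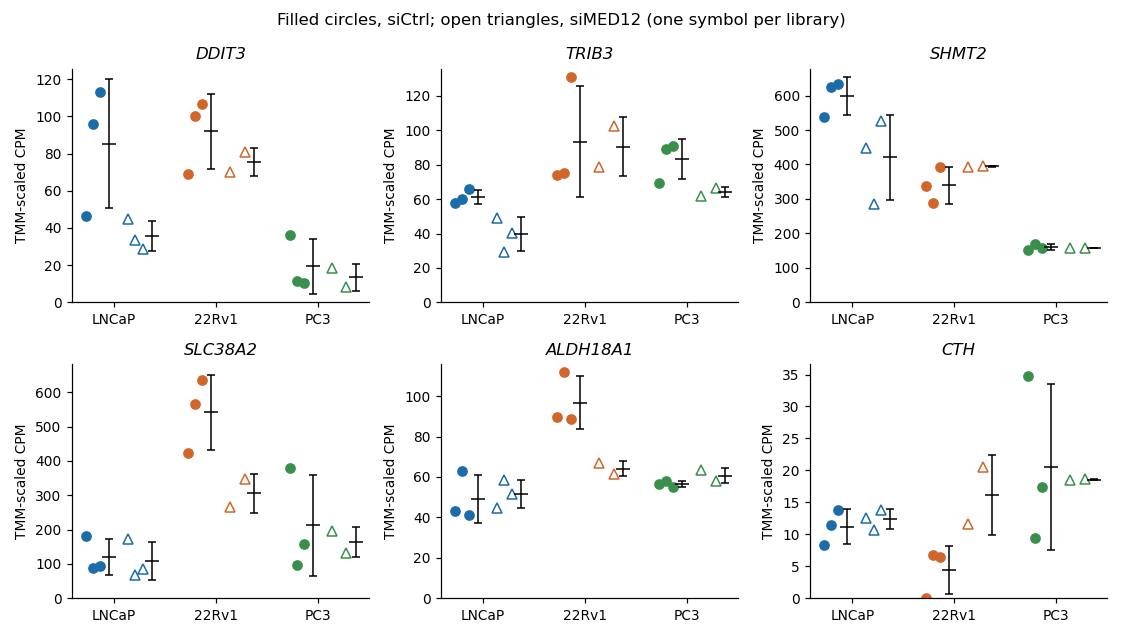
TMM-scaled CPM of DDIT3, TRIB3, SHMT2, SLC38A2, ALDH18A1 and CTH in each library by line, with filled circles for siCtrl, open triangles for siMED12 and the mean ± SD beside each group (n = 3, or 2 for siMED12 in 22Rv1 and PC3). DDIT3, TRIB3 and SHMT2 separate by treatment in LNCaP, and SLC38A2, ALDH18A1 and CTH in 22Rv1.

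In 22Rv1 the question was the same, with 2 siMED12 libraries. None of the 26 genes passed adjustment in edgeR, where 1.84% of all tested genes did, or in DESeq2 or limma, and 4 reached an unadjusted p below 0.05, or 15.4% against 11.7% of all genes. The libraries did not overlap for 6 genes, 23.1% against 26.6% of all genes, so neither share was far from the background. The median log2 fold change was -0.10, against 0.01 over all genes. ATF4 was at 247, 331 and 407 CPM in siCtrl and 249 and 318 CPM in siMED12, which overlap, with -0.22 (SE 0.168, adjusted p 0.671). DDIT3, at 69.0, 100.3 and 106 CPM against 70.0 and 80.8 CPM, overlapped as well.

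The 4 genes of 22Rv1 were of transport and metabolism. SLC38A2 was at 422, 567 and 636 CPM in siCtrl and 266 and 346 CPM in siMED12, both siMED12 libraries being the lower. Its log2 fold change was -0.83 (SE 0.314, adjusted p 0.224), and it passed in 2 of 22 alternatives, 1 of them without the filter on low counts. ALDH18A1 was at 89.8, 112 and 88.5 CPM against 66.8 and 61.6 CPM, without overlap, with -0.58 (SE 0.200, adjusted p 0.162). CTH, the enzyme that releases cysteine from cystathionine, was at 0, 6.69 and 6.42 CPM against 11.7 and 20.5 CPM, which is 0, 4 and 5 counts against 11 and 16. Its log2 fold change was 1.86 (SE 0.629, adjusted p 0.145), it was 1.25 without siCtrl replicate 1, and it too passed in 2 of 22 alternatives, 1 of them without the filter. SLC1A4 was at 5.21, 13.4 and 10.3 CPM against 18.0 and 19.2 CPM, with 0.98 (SE 0.465, adjusted p 0.394). MTHFD1L and SLC7A1 were also lower in both siMED12 libraries than in any siCtrl library, without reaching an unadjusted p of 0.05. CTH and SLC1A4 had higher siCtrl means in PC3 than in 22Rv1, and genes restricted to PC3 stood at 1.22% and 5.50% of their PC3 level in the 22Rv1 siMED12 libraries. Neither gene passed before or after the excess over siCtrl was subtracted. The subtraction only lowers siMED12 counts, so it could not make a higher level pass. In PC3 siCtrl, CTH was at 34.8, 9.46 and 17.3 CPM and SLC1A4 at 19.4, 11.6 and 5.78 CPM. Over the 22 alternatives, the subtraction among them, the log2 fold change of CTH ran from 1.25 to 2.35. That of SLC1A4 ran from 0.67 to 1.26. How much carried-over counts added to these 2 genes was not tested separately.

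In PC3 none of the 26 genes passed adjustment, as 0% of all tested genes did in edgeR. None reached an unadjusted p below 0.05 either, a level that 4.99% of all genes reached, and DESeq2 and limma called none of the list. The log2 fold changes ran from -0.42 to 1.16, with a median of 0.05 against -0.04 over all genes. ATF4 was at 196, 152 and 181 CPM in siCtrl and 146 and 168 CPM in siMED12, which overlap, with -0.17 (SE 0.195, adjusted p 0.978). The libraries did not overlap for 6 genes, 23.1% against 20.7% of all genes: SESN2, CEBPG, SLC7A1 and ALDH18A1 were higher and TRIB3 and XPOT lower. TRIB3 was at 69.7, 89.4 and 91.0 CPM against 62.0 and 66.4 CPM, and CEBPG at 52.9, 44.2 and 46.2 CPM against 62.0 and 58.1 CPM. The median SE of the 26 log2 fold changes was 0.243, which limits the size of change that this depth can show.

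The effects were then averaged over the lines and compared between them. For the mean effect none of the 26 genes passed in edgeR (0.265% of all genes did), DESeq2 or limma, and 5 had an unadjusted p below 0.05 (19.2%, against 8.52% of all genes), all lower: DDIT3, TRIB3, ATF4, GPT2 and SLC38A2. The mean log2 effect on ATF4 was -0.23 (SE 0.0986, adjusted p 0.509), the estimate being negative in each of the 3 lines. For the difference between lines none of the 26 passed either: 0.189% of all genes did for 22Rv1 minus LNCaP, 0.0284% for PC3 minus LNCaP and 0.0946% for PC3 minus 22Rv1. The unadjusted p was below 0.05 for 5, 4 and 2 of the 26 genes (19.2%, 15.4% and 7.69%), against 8.28%, 5.02% and 9.16% of all genes. The 4 genes of PC3 minus LNCaP had positive estimates, PHGDH of 0.64 (SE 0.266), CEBPG of 0.64 (SE 0.291), PPP1R15A of 1.19 (SE 0.549) and SESN2 of 1.43 (SE 0.668), with adjusted p of 0.941 to 0.951. The effect on DDIT3 was thus not shown to be particular to LNCaP, its difference being 1.03 (SE 0.413, adjusted p 0.476) for 22Rv1 minus LNCaP. For SHMT2 that difference was 0.72 (SE 0.225, adjusted p 0.312) and for PPP1R15A 1.53 (SE 0.566, adjusted p 0.432). CTH differed by -1.97 (SE 0.784, adjusted p 0.428) for PC3 minus 22Rv1, and by -1.35 without siCtrl replicate 1 of 22Rv1 or -1.34 without that of PC3. ALDH18A1 differed by 0.69 (SE 0.306, adjusted p 0.502) for PC3 minus 22Rv1.

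The rest of the pathway was read from 3 further lists. The upstream arm comprised the 4 eIF2 kinases, eIF2, its exchange factor eIF2B and their regulators. All 15 genes were tested, and for siMED12 none passed in LNCaP or PC3 in edgeR and 1 in 22Rv1, IMPACT (chromosome 18, 24426634 to 24453531). IMPACT, which binds GCN1 and so restrains the amino acid sensor GCN2, was at 52.1, 51.8 and 61.6 CPM in 22Rv1 siCtrl and 101 and 88.5 CPM in siMED12. The groups were far apart, and the log2 fold change was 0.78 (SE 0.202, adjusted p 0.0361). The call held in 15 of 22 alternatives and was lost without any 1 of the 5 libraries of 22Rv1 (adjusted p up to 0.356, without siMED12 replicate 1), in DESeq2 and in limma. IMPACT was also at 24.5, 38.9 and 34.7 CPM in PC3 siCtrl against 50.1 and 37.3 CPM in siMED12, which overlap, and the LNCaP log2 fold change was -0.07 (SE 0.178). An unadjusted p below 0.05 was reached by 0 of the 15 genes in LNCaP, by IMPACT alone in 22Rv1 (6.67%) and by 2 in PC3 (13.3%), against 7.34%, 11.7% and 4.99% of all genes. The 2 genes of PC3 were EIF2AK2, the kinase PKR, at 0.92 (SE 0.290, adjusted p 0.857), and GCN1 at 0.60 (SE 0.230, adjusted p 0.891).

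Further ATF4 targets, among them stress regulators and aminoacyl-tRNA synthetases, numbered 25 tested of 26. In LNCaP, 3 of the 25 passed (ATF3, DDIT4 and GDF15), all lower with siMED12. In 22Rv1 only DDIT4 passed, also lower, and in PC3 none did. The shares were 12%, 4% and 0%, against 0.416%, 1.84% and 0% of all genes. This list was chosen with earlier results of these data known, so its shares are not independent of the data. The unadjusted p was below 0.05 for 5, 7 and 1 of the 25 (20%, 28% and 4%), against 7.34%, 11.7% and 4.99% of all genes, so the PC3 share was near the background. GDF15, a secreted stress cytokine, was at 7361, 10015 and 7914 CPM in LNCaP siCtrl and 4629, 1994 and 3966 CPM in siMED12. The groups did not overlap, and the log2 fold change was -1.26 (SE 0.280, adjusted p 0.0258). The call held in 15 of 22 alternatives. It was lost in DESeq2 (adjusted p 0.638), in limma (0.124) and without any 1 of the 3 siCtrl libraries or of siMED12 replicates 2 and 3 (up to 0.348). In 22Rv1 GDF15 was at 217, 246 and 348 CPM against 68.9 and 146 CPM, with -1.36 (SE 0.418, adjusted p 0.0964). ATF3, a partner of ATF4 and DDIT3, was at 54.7, 54.4 and 63.6 CPM in LNCaP siCtrl and 14.0, 14.7 and 24.1 CPM in siMED12, and its call held in all 22 alternatives. In 22Rv1 ATF3 was at 62.5, 61.8 and 64.2 CPM against 40.3 and 39.8 CPM, without overlap, and did not pass. DDIT4, which restrains mTORC1, was at 319.8, 538 and 443 CPM against 215, 188 and 163 CPM in LNCaP and at 197, 279 and 473 CPM against 43.5 and 141 CPM in 22Rv1. The DDIT4 calls held in 16 and 21 of 22 alternatives. In LNCaP the call was lost in DESeq2 (adjusted p 0.277) and in limma (0.105). It was also lost without replicate 2 or 3 of siCtrl or of siMED12 (edgeR adjusted p 0.0745 to 0.165). In 22Rv1 the log2 fold change of -1.82 was -1.17 without siMED12 replicate 1 and -2.86 without siMED12 replicate 3. The median log2 fold change of the 25 was -0.30 in LNCaP, -0.04 in 22Rv1 and -0.03 in PC3. In the mean over lines ATF3, DDIT4 and GDF15 passed and fell, and no difference of effect between lines passed for any of the 25.

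**Figure D4:**
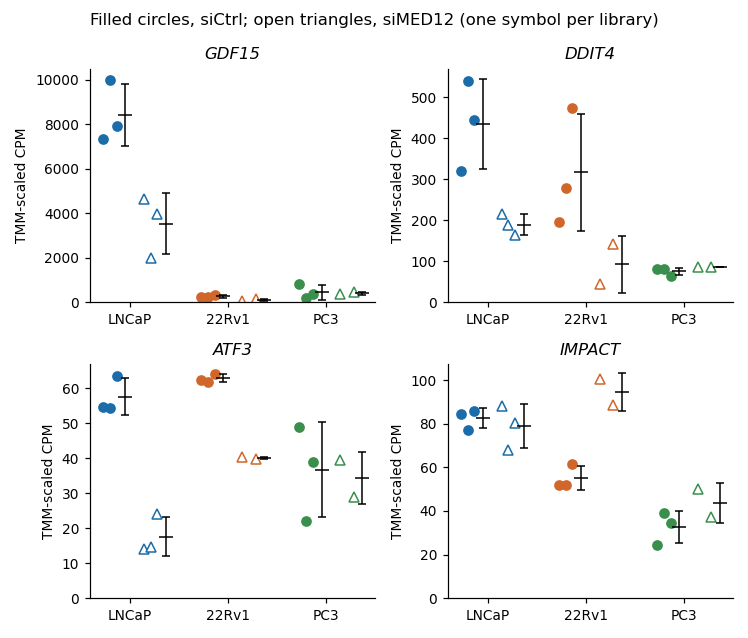
TMM-scaled CPM of the further pathway genes GDF15, DDIT4, ATF3 and IMPACT in each library by line, with filled circles for siCtrl, open triangles for siMED12 and the mean ± SD beside each group (n = 3, or 2 for siMED12 in 22Rv1 and PC3). GDF15, DDIT4 and ATF3 stand lower with siMED12 in LNCaP and 22Rv1, and IMPACT stands higher with siMED12 in 22Rv1.

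One-carbon enzymes beyond the listed ones, such as SHMT1, MTHFD1, TYMS and GART, numbered 13 tested of 15, and none passed for siMED12 in any line in edgeR, with 1, 3 and 1 at an unadjusted p below 0.05 in LNCaP, 22Rv1 and PC3 (7.69%, 23.1% and 7.69%, against 7.34%, 11.7% and 4.99% of all genes). Between lines without knockdown, 6 of the 13 differed for 22Rv1 against LNCaP, 9 for PC3 against LNCaP and 9 for PC3 against 22Rv1 (46.2%, 69.2% and 69.2%, against 43.2%, 54.7% and 54.9% of all genes). Of the 9 for PC3 against LNCaP, 2 were higher and 7 lower in PC3. The median log2 difference of the 13 was -0.71, against 0.05 over all genes. MTHFD1, the cytosolic counterpart of the mitochondrial folate enzymes, had the highest estimate of the 13 there, 1.38 (SE 0.160, adjusted p 1.09e-08). Of the tested mitochondrial folate enzymes in the main list, SHMT2 was 1.91 lower there, while MTHFD2 (0.14) and MTHFD1L (0.24) did not pass. Of the 25 further targets 14, 14 and 13 differed in the same order of pairs (56%, 56% and 52%), and of the 15 upstream genes 8, 5 and 7 (53.3%, 33.3% and 46.7%), against the same 43.2%, 54.7% and 54.9% of all genes.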

How the data were processed

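The authors deposited raw counts per gene, made with STARsolo on Gencode release 43 (GRCh38.p13), and a log2 CPM table made from them with edgeR. Collapsing of unique molecular identifiers is not stated. The deposited log2 CPM values were recomputed to within 5e-14. No column belonged to a sample outside this series. The count test was the quasi-likelihood method of edgeR (version 4.0.16, R 4.3.3), a single model of the 16 libraries and 6 groups with TMM scaling and filterByExpr (minimum count 10, minimum total 15), which kept 97.9% to 98.6% of the counts of each library. P-values are 2-sided, adjusted by Benjamini and Hochberg over 10566 genes of 1 contrast, and measure the spread between these libraries. The SE is the log2 fold change divided by the square root of F. Replicates within a group differed by 1.60 to 3.43 times the sampling variance, so none was a copy of another's counts. This ratio cannot show whether they came from separate cultures, since repeated preparation of the same RNA can also exceed sampling variance.

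The genes and lists were chosen with earlier results of these data known. Of the 31 genes, those with an unadjusted p below 0.05 for siMED12 in a line and ATF4 are named with values, and between lines those with an adjusted p below 0.05. In the 3 further lists, genes called for siMED12 are named. Other genes named, such as those whose libraries did not overlap, were chosen after their values were seen. Coordinates are those of Gencode release 44 on GRCh38, matched by identifier, and promoter sequences those of RefSeq. Alternatives were RLE scaling, no filter, DESeq2 1.42.0, limma 3.58.1 on log2 CPM, a replicate block, subtraction of counts carried over from other lines, and leaving out each library.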

Additional observations from a re-analysis of the deposited data

How the results depend on the processing

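No result changed direction under any alternative. Of the gene-level values, 1645 of 1711 stayed on their side of the threshold, 58 lost a call and 8 gained one. The number of the 26 genes called in LNCaP, 1, became 2 without the filter on low counts and 0 in DESeq2 and in limma, and was 0 to 1 when 1 library was left out. Without the filter the count became 2 in 22Rv1, 1 for the mean effect and 1 (SHMT2) for the difference of 22Rv1 from LNCaP, each from 0. It stayed at 0 in PC3 and for the other differences. Over all genes, calls without the filter rose from 44 to 95 in LNCaP and from 194 to 282 in 22Rv1. They rose from 28 to 72 for the mean effect and from 20 to 68 for 22Rv1 minus LNCaP. Between siCtrl groups, leaving out 1 library gave 12 to 16, 16 to 20 and 16 to 17 called genes in the order of the report.

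The labels share replicate numbers without saying that these mark pairs, and the main test used no pairing. The deviations of the 7 same-numbered pairs correlated at 0.0516 to 0.214. Counting noise lowers such a correlation, so its size does not decide whether the numbers mark pairs. All 14 libraries with a partner correlated best with their own number, a hint from the data and not from the design. Deviations were taken from group means, so in a group of 2 libraries they mirror each other. The 14 matches are therefore not independent. With a replicate block the counts were 2 in LNCaP (DDIT3 and SHMT2), 2 in 22Rv1 (SLC38A2 and CTH), 2 for the mean effect (SLC38A2 and DDIT3) and 0 elsewhere for siMED12. Calls over all genes rose as well, from 44 to 117 in LNCaP and from 194 to 312 in 22Rv1. They rose from 28 to 99 for the mean effect and from 0 to 20 in PC3. The cause of these changes was not tested. Depth limits PPP1R15A, SESN2, CTH, CBS in PC3, SLC7A11 and SLC1A4, with under 20 counts in many libraries. With 2 siMED12 libraries in 22Rv1 and PC3, leaving 1 out assumes that the other varies like the remaining groups.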
